A study of Mus musculus with 17 samples.

Results

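Oligodendrocyte precursor cells are the dividing glia that mature into the myelin-forming oligodendrocytes of the brain and that persist in the adult as a self-renewing population. They are known by the growth factor receptor Pdgfra, the proteoglycans Vcan and Cspg4 (NG2) and the transcription factor Olig2, and on the way to myelination they pass a committed stage marked by the receptor Gpr17. The nuclei described here were those that the deposited metadata placed in cluster 13 at clustering resolution 0.4 and gave the predicted cell type Neurons. The rule found 7336 of 284074 nuclei (2.58%). Of the 7782 nuclei of cluster 13, another 430 carried the predicted type Oligodendrocytes and 16 carried other types.

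The data are droplet-based single-nucleus RNA counts (10x Genomics) from the posterior brain of 17 female mice aged 2.3 months, in which both copies of the transferrin receptor gene carry a human TfR knock-in. All 4 groups, the saline controls included, therefore carry the human receptor. The mice received 4 intravenous doses over 24 days of saline (n = 4), of Malat1 ASO at 2 mg per kg (n = 4), of anti-TfR:Malat1 at 50 mg per kg (n = 6) or of OTV:Malat1 at 50 mg per kg (n = 3), and tissue was taken 72 h after the last dose. An ASO is an antisense oligonucleotide, a short synthetic strand that pairs with an RNA and leads to its cleavage by RNase H, an enzyme active in the nucleus. In anti-TfR:Malat1 it is carried by an antibody to the transferrin receptor, and in OTV:Malat1 by the oligonucleotide transport vehicle, a protein engineered to bind the same receptor, which moves iron-loaded transferrin into cells. The doses of free and carried material differ in mass, so the free ASO and the carried forms are given side by side. The series title names a comparison of target knockdown between both carriers. Malat1, the target, is a long noncoding RNA retained in nuclear speckles. GENCODE M21 places it on chromosome 19 from 5795690 to 5802672 on the minus strand (GRCm38, which corresponds to the mm10 build named in the submitters' processing notes).

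Each animal gave 343 to 576 of these nuclei, with a median of 2040 UMIs (unique molecular identifiers, counts of captured RNA molecules) and 1241 genes per nucleus, and 15775513 UMIs in all. The authors' doublet call marked 89 of them (1.21%) against 16.8% of all nuclei. Among these nuclei 8 barcodes occurred in more than 1 library, and among all nuclei 10044 did. Barcodes that these nuclei shared with other nuclei were not counted. The animals came from 4 batches, as the deposited metadata names them without saying what a batch is. OTV:Malat1 animals 1, 2 and 3 were in batches 2, 3 and 4, and batch 1 held no OTV:Malat1 animal. One library stood apart in Xist, the noncoding RNA that silences an X chromosome in female cells. Malat1 ASO animal 1 had 1 UMI of it in these nuclei (1.27 CPM) and 0 of its antisense partner Tsix, where the other 16 animals had 1193 to 1817 CPM of Xist and 61 to 218 UMIs of Tsix. The 4 Y-linked genes Ddx3y, Eif2s3y, Kdm5d and Uty had 0 UMIs in that animal and 2 in all 17. The cause was not tested. Without this animal 0 genes passed for Malat1 ASO against saline, as with it, and differences between these groups that turned sign or moved by over 1.5 times without it are given beside the result. Nothing in the labels says how the libraries of a group relate beyond their numbers, so the p-values measure the spread between these samples.

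The predicted label Neurons went against the markers, and the markers fitted the precursor name, so the nuclei are called oligodendrocyte precursor-like. Levels are counts per 1000000 UMIs of the class (CPM), summed over animals, and are described without a test because the clustering used these genes. Pdgfra stood at 616 CPM against 3.06 in neurons, 5.46 in oligodendrocytes and 14.6 in astrocytes of the deposited labels. Vcan stood at 1252 CPM against 15.3 in neurons, Cspg4 at 334.9 against 2.38, and Olig2 at 109 against 1.95. After each nucleus was thinned to 500 UMIs, Pdgfra was seen in 25.7% of the precursor-like nuclei and in 0.167% of neurons. Without thinning the shares were 67.5% at a median of 2040 UMIs and 1.05% at a median of 4731 UMIs. Vcan was seen in 45.0% of thinned precursor-like nuclei and 0.791% of thinned neurons. The neuronal gene Snap25 was seen in 15.4% of thinned precursor-like nuclei, between 35.4% in neurons and 8.46% in oligodendrocytes. All 22 genes of a precursor identity list were at 50 CPM or more. That list was chosen with earlier results of these data known, so it gives no independent support for the name. The endothelial gene Flt1 and the microglial gene Csf1r were close to 0 on the same scale.

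**Figure D1:**
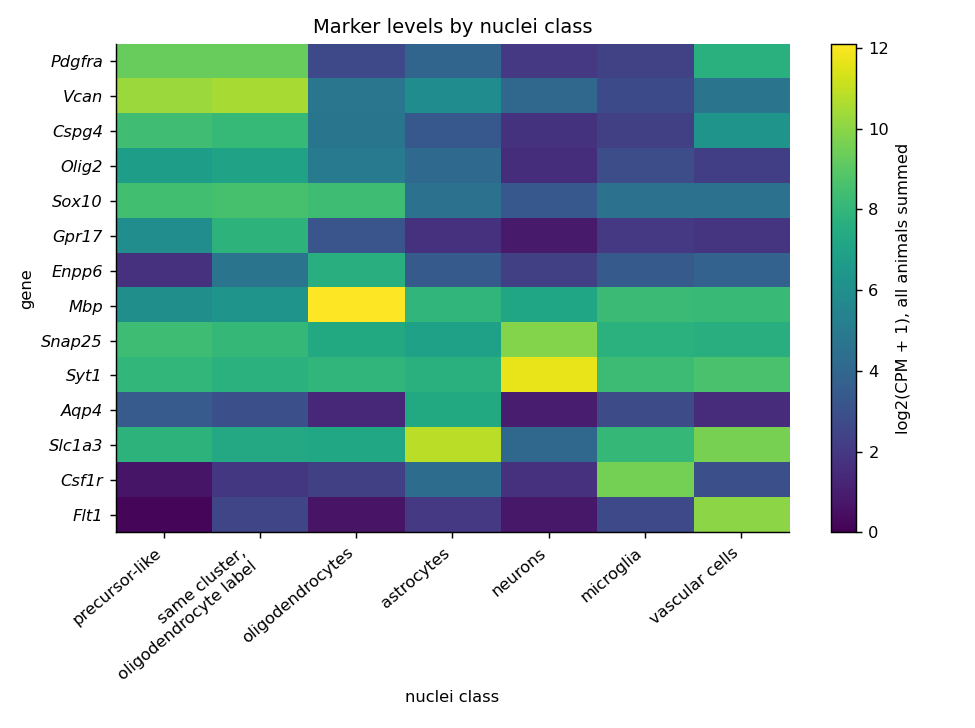
Level of marker genes (rows) in 7 classes of nuclei (columns) as log2(CPM + 1), all animals summed. The precursor-like column carries Pdgfra, Vcan and Cspg4 and low Mbp, and the neuronal genes Snap25 and Syt1 are brightest in the neuron column.

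The 10 genes of 50 CPM or more with the largest ratio to all other nuclei were Pdgfra, Gucy2f, Rlbp1, S100a2, Afap1l2, Neu4, Vcan, C430049B03Rik, Cspg4 and Emid1. Their ratios ran from 142 for Pdgfra to 62.1 for Emid1. Neu4, a sialidase, stood at 180.0 CPM in these nuclei and at 584 CPM in the 430 nuclei of the same cluster labelled Oligodendrocytes. Gpr17 differed in the same direction, at 59.9 against 225 CPM. Enpp6, a gene of newly formed oligodendrocytes, was at 2.28 CPM here, 24.2 in the 430 nuclei and 193 in oligodendrocytes outside the cluster. The median prediction score was 0.836 in the precursor-like nuclei, 0.702 in the 430 nuclei and 1 in neurons outside the cluster. At the finer resolution of 1.0, 7308 of the 7336 nuclei stayed in 1 cluster.

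Malat1 RNA in these nuclei did not pass the test in any comparison, and its mean was lowest after OTV:Malat1. It made up 6.83, 5.15, 5.92 and 3.45% of their UMIs in saline animals 1 to 4, and 4.64, 4.82 and 3.89% in OTV:Malat1 animals 1 to 3. Malat1 ASO animals gave 5.97, 5.20, 6.30 and 3.83%. Anti-TfR:Malat1 animals gave 3.95, 5.61, 6.53, 5.82, 4.79 and 4.67%. All 3 OTV:Malat1 values lay inside the range of the saline group. The group means were 5.34% ± 1.44 (SD, n = 4) for saline, 5.32% ± 1.10 (n = 4) for Malat1 ASO, 5.23% ± 0.929 (n = 6) for anti-TfR:Malat1 and 4.45% ± 0.494 (n = 3) for OTV:Malat1, which is 83.4% of the saline mean.

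In edgeR's quasi-likelihood test on UMIs summed per animal, the log2 change of Malat1 for OTV:Malat1 against saline was -0.31 (SE 0.16, 95% interval -0.63 to 0.0090, edgeR adjusted p = 0.994 by Benjamini-Hochberg over 10501 genes). Against anti-TfR:Malat1 it was -0.30 (SE 0.15, 95% interval -0.59 to 0.0015, edgeR adjusted p = 0.982). Neither passed the threshold of 0.05 after adjustment, and the unadjusted edgeR p was 0.0564 and 0.0511. Anti-TfR:Malat1 and Malat1 ASO differed from saline by -0.01 (95% interval -0.28 to 0.25) and 0.00 (95% interval -0.29 to 0.30), the latter -0.04 without Malat1 ASO animal 1. With batch as a term in the fit, the values were -0.25 (SE 0.10, edgeR unadjusted p = 0.0175, adjusted p = 0.978) against saline and -0.28 (SE 0.09, unadjusted p = 0.0039, adjusted p = 0.850) against anti-TfR:Malat1. Within batches, where each batch had 1 OTV:Malat1 and 1 saline animal, the OTV:Malat1 minus saline difference in log2(CPM + 1) was -0.15, -0.30 and 0.17 in batches 2, 3 and 4. Against the anti-TfR:Malat1 animals of the same batches it was -0.27, -0.35 and -0.28. The OTV:Malat1 change against saline was -0.16 without saline animal 1 and -0.47 without saline animal 4, the highest and the lowest of that group. Neither leave-out brought the adjusted p under the threshold, and the unadjusted edgeR p was 0.324 and 0.0022. DESeq2 gave the OTV:Malat1 change as -0.32 against saline (SE 0.22, DESeq2 unadjusted p = 0.146) and -0.30 against anti-TfR:Malat1 (SE 0.20, unadjusted p = 0.135). For log2(CPM + 1) per animal, OTV:Malat1 minus saline was -0.22 (exact permutation p = 0.457, adjusted p = 0.914 over 6 tests). OTV:Malat1 minus anti-TfR:Malat1 was -0.22 on that scale (exact permutation p = 0.214, adjusted p = 0.857).

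The distance from saline was larger in oligodendrocytes, astrocytes and neurons outside the cluster in the same animals. Labelled oligodendrocytes had Malat1 at 10.3% ± 1.76 of UMIs in saline and 1.65% ± 0.199 in OTV:Malat1 (16.0% of the saline mean). Astrocytes had 9.62% ± 2.41 and 3.30% ± 0.184 (34.3%), and neurons 6.42% ± 1.48 and 4.27% ± 0.688 (66.6%). The precursor-like nuclei were at 83.4%, and the 430 nuclei of their cluster labelled Oligodendrocytes 85.2%. After anti-TfR:Malat1 the levels were 68.1% of the saline mean in oligodendrocytes, 64.1% in astrocytes, 90.7% in neurons and 98.0% in the precursor-like nuclei.

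**Figure D2:**
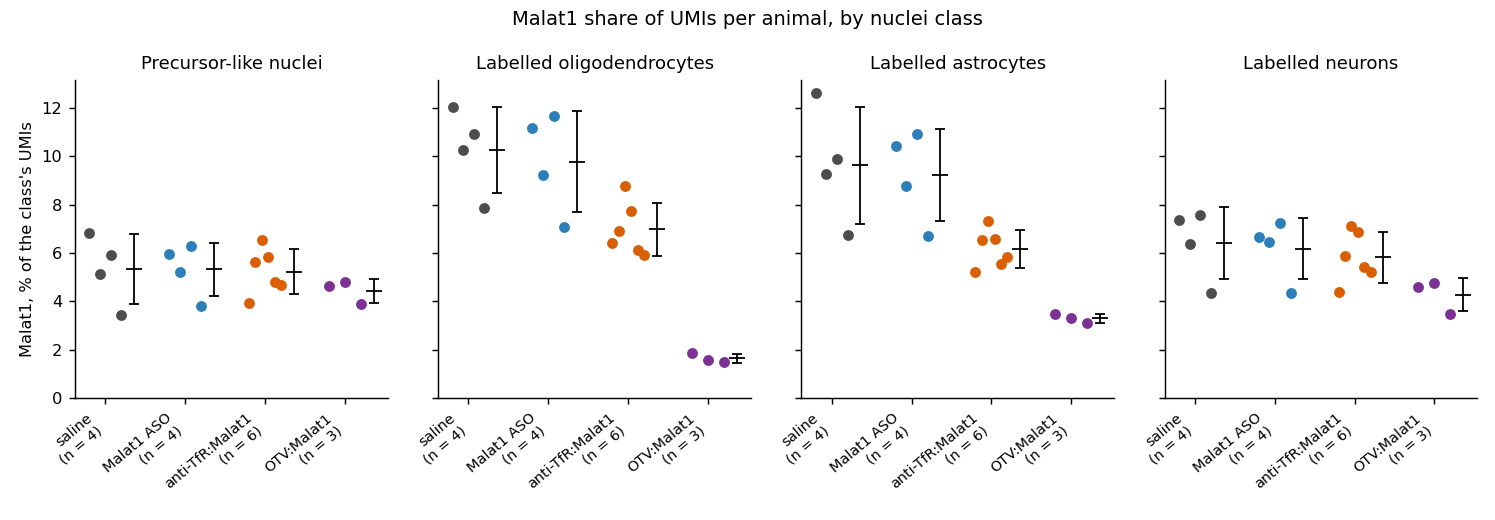
Malat1 as a percentage of all UMIs of a class in each animal (points), with the group mean and SD (bars), for precursor-like nuclei and 3 deposited classes. In the OTV:Malat1 group the oligodendrocytes lie near 1.65% while the precursor-like nuclei lie at 3.89 to 4.82%, inside the saline range.

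To compare the classes within an animal, the log2(CPM + 1) of Malat1 in the precursor-like nuclei minus that in another class of the same animal was taken. Against oligodendrocytes this difference was -0.82, -0.996, -0.88 and -1.19 in saline animals and 1.31, 1.60 and 1.39 in OTV:Malat1 animals. The sign thus changed: the precursor-like nuclei held less Malat1 than oligodendrocytes in every saline animal and more in every OTV:Malat1 animal. The shift was 2.41 (exact permutation p = 0.0571, the smallest that 3 against 4 animals allow, adjusted p = 0.0762 over 12 tests). Anti-TfR:Malat1 animals ran from -0.70 to -0.30, with no overlap with either group. Their shift from saline was 0.55 (exact p = 0.0095, adjusted p = 0.0571), and OTV:Malat1 exceeded them by 1.86 (exact p = 0.0238, adjusted p = 0.0571). Malat1 ASO animals lay between -0.90 and -0.83, a shift of 0.09 from saline (exact p = 0.4). That shift was 0.02 without saline animal 4 and 0.15 without saline animal 1.

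Against astrocytes the mean difference was -0.86 in saline, -0.25 after anti-TfR:Malat1 and 0.43 after OTV:Malat1, with no overlap between these 3 groups. The step of 0.68 between the carriers had an exact p of 0.0238 and an adjusted p of 0.0571. Against neurons the distances were shorter. The mean difference was -0.28 ± 0.11 in saline, -0.15 ± 0.06 after anti-TfR:Malat1 and 0.07 ± 0.08 after OTV:Malat1, and all 3 OTV:Malat1 animals lay above every other animal of these groups. None of the 12 adjusted two-sided p-values was under 0.05. With labels moved only within batches, the OTV:Malat1 minus saline shifts were 2.46, 1.28 and 0.40 for oligodendrocytes, astrocytes and neurons (exact p = 0.250 each, the smallest that this allows). The anti-TfR:Malat1 minus saline shifts within batches were 0.53, 0.60 and 0.13 (exact p = 0.0556, 0.0556 and 0.111, where 0.0556 is the smallest possible, adjusted p = 0.222 for each). With labels moved across batches, leaving out saline animal 1 brought the anti-TfR:Malat1 shifts to adjusted p = 0.0476 for all 3 classes, at 0.60, 0.60 and 0.18. Whether free RNA from other cells sets part of the level in any class was not tested.

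**Figure D3:**
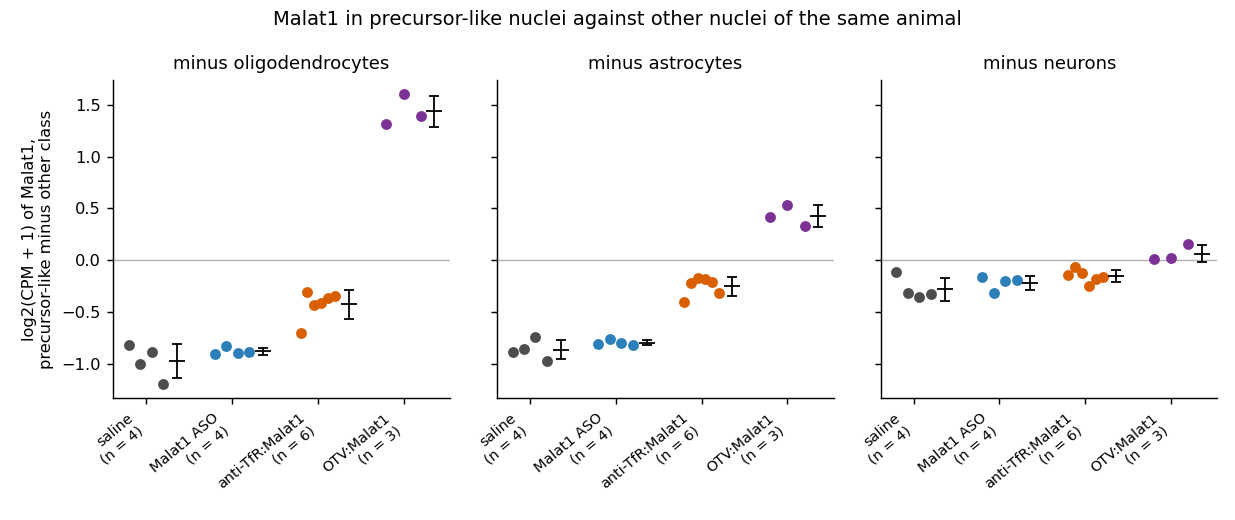
Difference in log2(CPM + 1) of Malat1 between precursor-like nuclei and 3 other classes of the same animal (points, 1 per animal), with group mean and SD (bars). OTV:Malat1 animals lie above 0 in all 3 panels, and saline animals lie below 0.

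Malat1 varied more from nucleus to nucleus in each OTV:Malat1 animal than in any other animal, a difference that did not pass after adjustment. With each nucleus thinned to 500 UMIs, the relative spread is the SD of Malat1 between nuclei as a percentage of the mean, after the variance that drawing 500 UMIs gives by itself was taken off. This measure was chosen after the data were seen. It was 29.7, 33.4 and 31.8% in OTV:Malat1 animals 1 to 3. Saline animals gave 20.3, 21.8, 19.7 and 19.0%. Malat1 ASO animals ran from 17.4 to 20.8%, and anti-TfR:Malat1 animals from 16.9 to 23.8%. Each OTV:Malat1 animal lay above all 14 other animals. The distance from saline was 11.46 percentage points (adjusted p = 0.114 over 8 tests, from an exact permutation p of 0.0571, which is as small as these animals allow). The distance from anti-TfR:Malat1 was 11.6 points (adjusted p = 0.0952, exact permutation p = 0.0238, again the lowest value reachable). The anti-TfR:Malat1 minus saline difference was -0.103 (exact p = 0.952). For Malat1 ASO it was -1.21, or -1.83 without Malat1 ASO animal 1 (exact p = 0.286 and 0.171). Without Malat1 ASO animal 3 it was -0.675, the other end of the range over alternative runs.

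The low tail was also largest in the OTV:Malat1 animals. The share of nuclei with Malat1 under 50% of their own animal's median was 7.99, 9.74 and 6.88% in OTV:Malat1 animals. It was 3.03, 2.07, 1.72 and 3.19% in saline animals, 1.46 to 3.55% after Malat1 ASO and 1.66 to 4.46% after anti-TfR:Malat1. The difference between the Malat1 ASO and saline means was -0.169 percentage points, or 0.122 without Malat1 ASO animal 1. The mean of OTV:Malat1 was 5.70 percentage points above that of saline, with an exact p of 0.0571 and an adjusted p of 0.114. It was 5.20 points above that of anti-TfR:Malat1, with an exact p of 0.0238 and an adjusted p of 0.0952. The medians themselves were 23, 24 and 19 Malat1 UMIs of 500 in OTV:Malat1 animals. Saline animal 4, Malat1 ASO animal 4 and anti-TfR:Malat1 animal 1 had medians as low, at 17, 19 and 19, with low tails of 3.19, 3.55 and 3.98%. Within batches 2, 3 and 4 the saline animals' tails were 2.07, 1.72 and 3.19% beside those of OTV:Malat1. Thinning to 1000 UMIs left the excess over saline at 5.66, and removing the doublets left it at 5.72.

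**Figure D4:**
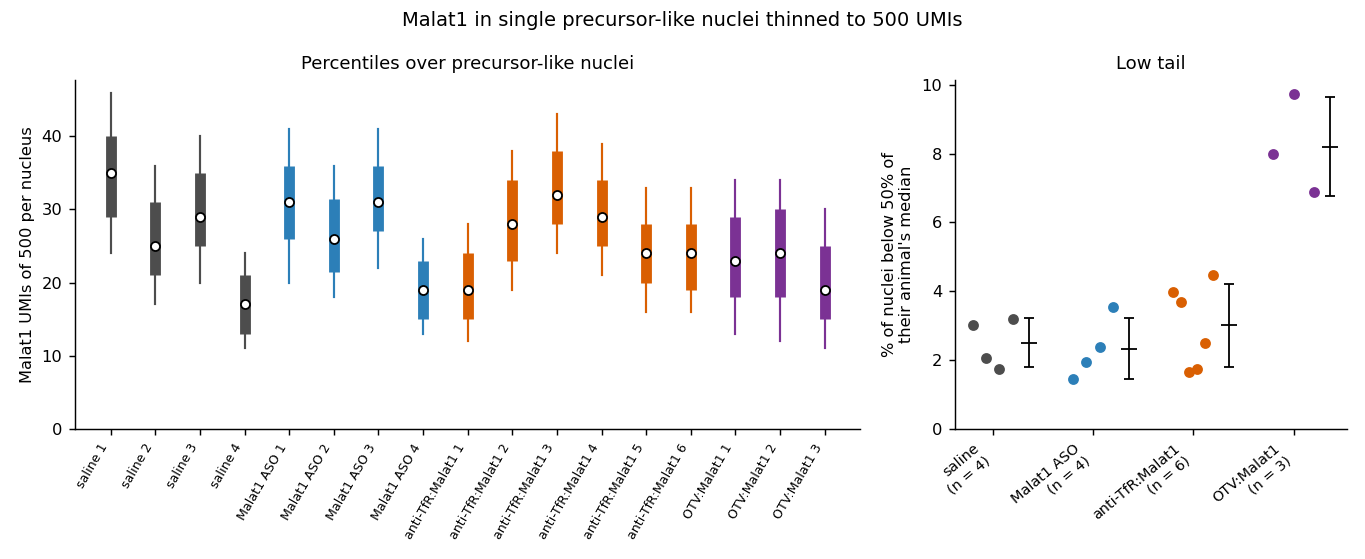
Left, Malat1 UMIs per precursor-like nucleus thinned to 500 UMIs, by animal (circle, median; thick bar, 25th to 75th percentile; thin line, 10th to 90th percentile). Right, share of nuclei below 50% of their animal's median (points) with group mean and SD, where the OTV:Malat1 animals lie at 6.88 to 9.74% and the rest at 4.46% or lower.

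The low tail of OTV:Malat1 held 117 of 1450 nuclei, 34 to 46 per animal, of which 20 lay within 1 UMI of the limit. Malat1 made up 1.78% of their UMIs and 4.67% of those of the other 1333, a gap set by choosing these nuclei on Malat1. The low tails of saline, Malat1 ASO and anti-TfR:Malat1 held 41, 41 and 75 nuclei, with 12, 14 and 15 within 1 UMI of the limit. Malat1 in their low and other nuclei was 2.76 and 5.57%, 2.69 and 5.41%, and 2.33 and 5.22%. Other values of the low and the other OTV:Malat1 nuclei are given next. Pdgfra took 6.27 and 5.82 of 10000 UMIs, Vcan 12.4 and 11.95, and the committed-stage list 17.3 and 15.3. In this paragraph that list is taken without Fyn, Sirt2, Rras2 and Cemip2. The mature myelin list took 10.4 and 8.14, the median depth was 1636 and 1814 UMIs, and doublet calls were 0.855 and 1.73%. Low nuclei of the other groups took 18.1 against 16.4 for the committed-stage list in saline, 19.8 against 15.1 after Malat1 ASO and 18.9 against 16.1 after anti-TfR:Malat1. Their median depth was 1877 against 2140, 1650 against 2082 and 1952 against 2115 UMIs. The other measures had no shared direction. The myelin list took 6.22 against 6.45 in saline, 7.41 against 6.39 after Malat1 ASO and 6.83 against 6.50 after anti-TfR:Malat1. Pdgfra took 7.33 against 6.39, 4.85 against 6.27 and 6.70 against 6.08, and Vcan 13.55 against 12.2, 12.78 against 12.99 and 13.5 against 12.6. Doublet calls were 0 against 1.26%, 2.44 against 1.17% and 1.33 against 0.947%. These pooled values carry no test. For comparison, the relative spread in OTV:Malat1 was 77.7% ± 14.4 in oligodendrocytes, 56.1% ± 4.95 in astrocytes and 47.0% ± 1.80 in neurons, against 24.4% ± 0.966, 23.1% ± 2.57 and 37.8% ± 3.04 in saline. After anti-TfR:Malat1 it was 38.6% ± 2.95 in oligodendrocytes, 34.3% ± 3.15 in astrocytes, 35.004% ± 1.42 in neurons and 20.1% ± 2.58 in the precursor-like nuclei.

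On a fixed scale, 14 Malat1 UMIs of 500 was the 10th percentile of saline precursor-like nuclei with the 4 animals weighted equally. Below it lay 14.0% ± 3.58 of OTV:Malat1 nuclei, 8.42% ± 12.7 of saline nuclei, 4.46% ± 5.72 of Malat1 ASO nuclei and 5.63% ± 5.29 of anti-TfR:Malat1 nuclei. Saline animal 4 alone had 27.5% below it. Without it the difference between OTV:Malat1 and saline went from 5.59 to 11.9 percentage points, with saline animals at 1.23 to 3.36% and OTV:Malat1 animals at 11.1 to 18.02%, which do not overlap (exact p = 0.1, the smallest possible for 3 against 3, adjusted p = 0.2). Over the alternative runs the OTV:Malat1 minus saline difference ran from 3.19, without saline animal 3, to 12.45 percentage points. With all animals no comparison passed. The exact p was 0.457 for OTV:Malat1 against saline, and 0.0714 (adjusted p = 0.286) against anti-TfR:Malat1. In OTV:Malat1 animals 90.4% ± 3.84 of oligodendrocytes, 44.5% ± 5.62 of astrocytes and 27.6% ± 8.35 of neurons lay below the same value.

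The share of precursor-like nuclei among all nuclei did not separate the groups. It was 2.83, 2.27, 2.31 and 2.64% in saline animals and 3.32, 2.07 and 2.98% in OTV:Malat1 animals. Group means were 2.51% ± 0.272 for saline, 2.67% ± 0.508 for Malat1 ASO, 2.50% ± 0.296 for anti-TfR:Malat1 and 2.79% ± 0.645 for OTV:Malat1. OTV:Malat1 differed from saline by 0.275 percentage points (exact p = 0.514, adjusted p = 0.914 over 4 tests). The difference was 0.011 without OTV:Malat1 animal 1, 0.179 without animal 3 and 0.635 without animal 2. Malat1 ASO differed from saline by 0.153 points, or by 0.285 without Malat1 ASO animal 1.

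Stage markers did not pass the test in any comparison. A nucleus was counted as committed where 2 or more of its 500 thinned UMIs came from the committed-stage list. The list of 12 genes was used for this without Fyn, Sirt2, Rras2 and Cemip2. This held for 19.8% ± 3.17 of saline nuclei, 17.7% ± 2.19 of Malat1 ASO nuclei, 19.4% ± 1.87 of anti-TfR:Malat1 nuclei and 20.4% ± 3.55 of OTV:Malat1 nuclei. The direction for OTV:Malat1 against saline depended on the rule. Its difference was 0.645 percentage points, and it turned to -3.61 when nuclei were thinned to 1000 UMIs and to -4.65 when 1 UMI was enough. In the last case the groups did not overlap (exact p = 0.0571, the smallest possible for 3 against 4, adjusted p = 0.286). Several list genes are shared with mature oligodendrocytes, of which 15.2% met the same rule, against 9.23% of astrocytes and 1.16% of neurons. Of the 430 nuclei of the same cluster labelled Oligodendrocytes, which these shares leave out, 38.8% met the rule. Without thinning 76.1% of precursor-like nuclei met it. Gpr17 itself was seen in 3.13% ± 0.321 of thinned saline nuclei and 3.06% ± 0.730 of OTV:Malat1 nuclei, and in 3.30% ± 1.21 and 2.25% ± 0.479 of anti-TfR:Malat1 and Malat1 ASO nuclei. After thinning to 500 UMIs, nuclei with 2 or more UMIs from 20 cell cycle genes were 53 of 7336 in all. They made up 0.863% ± 0.338 in saline, 0.663% ± 0.292 after Malat1 ASO, 0.603% ± 0.433 after anti-TfR:Malat1 and 0.880% ± 0.140 after OTV:Malat1. On unthinned counts 359 nuclei (4.89%) met this rule. Over these 8 tests the smallest adjusted p was 0.889. Committed and other nuclei had overlapping Malat1 levels. In OTV:Malat1 it was 4.53% ± 0.627 of UMIs in the first and 4.43% ± 0.468 in the second, and in saline 5.27% ± 1.37 and 5.35% ± 1.45 (exact p = 0.286 and adjusted p = 0.571 for the difference between OTV:Malat1 and saline).

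No gene passed the threshold in any comparison of the precursor-like nuclei, with 10501 genes tested (0% called in each). At an unadjusted edgeR p under 0.05 there were 380 genes for OTV:Malat1 against saline (3.62%), 309 for anti-TfR:Malat1 against saline (2.94%), 257 for Malat1 ASO against saline (2.45%) and 429 for OTV:Malat1 against anti-TfR:Malat1 (4.09%). DESeq2 also called 0 in each. Without the filter on low counts, edgeR passed 2 genes for OTV:Malat1 against saline, 0 for anti-TfR:Malat1 against saline, 4 for Malat1 ASO against saline and 2 between the carriers. On simulated counts for OTV:Malat1 against saline, the same test recovered 94% of 100 genes changed 2-fold. It recovered 100% of 100 genes changed 4-fold among 10501, with 5 false calls. The changed genes were drawn only from those of higher counts, and every gene was given the same spread between animals. The simulation therefore sets no limit for genes of lower counts or wider spread.

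The genes named next did not pass, and their values are given as the smallest p-values of each comparison. For OTV:Malat1 against saline, the histidyl-tRNA synthetase gene Hars was at 35.8 against 18.3 CPM (log2 0.92, SE 0.26), and Pnpla3 (1.30), Morn4 (1.35), Hat1 (0.66) and Zc3h6 (0.87) followed. On the lower side, Akt2, a kinase of insulin signalling, was at 13.9 against 26.6 CPM (log2 -0.96, SE 0.28), followed by Gm20342 (-0.67), Prkaa2 (-0.64), Klf7 (-0.37) and 2700097O09Rik (-0.52). For OTV:Malat1 against anti-TfR:Malat1, Dcun1d4 had the smallest p, at 19.6 against 38.9 CPM (log2 -1.06, SE 0.22, edgeR adjusted p = 0.351). Serinc5, Plppr1, Mnat1 and Poc5 followed on the lower side. Hat1, a histone acetyltransferase gene, Slc35b1, Gm47071, Sumo2 and Faap20 had the smallest p on the higher side, with Hat1 at 52.5 against 28.0 CPM. For anti-TfR:Malat1 against saline the genes were Xrcc1, Aqr, Pls1, Tm6sf1 and Gm44593 on the higher side and Gm17114, 4933400F21Rik, Wdcp, Ccne2 and Gm12940 on the lower. For Malat1 ASO against saline they were Srd5a3, at 12.2 against 3.34 CPM, Cdip1, Morn4, Glt1d1 and Poldip2, and Fam104a, Fzd3, Slk, Gm27017 and Fbxl19.

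No precursor identity gene passed the test. Pdgfra, the receptor for platelet-derived growth factor that sustains these cells, was at 738, 697, 488 and 570.0 CPM in saline animals and 617, 572 and 558 in OTV:Malat1 animals (log2 -0.15, SE 0.13, edgeR adjusted p = 0.994). Vcan was at 1118, 1122, 1342 and 1395 CPM in saline and 1231, 1131 and 1218 in OTV:Malat1 (log2 -0.10, SE 0.10). Cspg4 was at 365, 337, 245 and 349 CPM in saline and 403, 322 and 341 in OTV:Malat1 (log2 0.09). Olig2 was at 106 CPM in saline and 119 in OTV:Malat1 (log2 0.10). In each of these 4 genes the groups overlapped. Of the 22 identity genes, all were tested and 0 passed in each comparison. Their median log2 change was -0.09 for OTV:Malat1 against saline (range -0.16 to 0.10), or -0.14 without OTV:Malat1 animal 1 and -0.04 without animal 2. It was 0.01 for anti-TfR:Malat1 and 0.01 for Malat1 ASO against saline, the latter -0.02 without Malat1 ASO animal 1. Over all tested genes the median for OTV:Malat1 against saline was -0.0015. Lhfpl3, Pcdh15, Tnr and Nxph1 gave -0.05, -0.09, -0.10 and -0.16 for OTV:Malat1 against saline.

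The committed-stage list had 10 of 12 genes tested and 0 past the threshold, with a median of -0.11 for OTV:Malat1 against saline, or -0.20, -0.03 and -0.19 without OTV:Malat1 animals 1, 2 and 3 in turn. Gpr17 was at 67.6, 76.5, 74.6 and 57.1 CPM in saline, 62.1, 47.0, 52.2 and 41.3 in Malat1 ASO and 35.3, 54.1 and 70.5 in OTV:Malat1. Its log2 change was -0.44 for both (SE 0.21 and 0.22, edgeR adjusted p = 1.00 and 0.994), with overlapping groups. Without OTV:Malat1 animal 1 the second value was -0.20, and without animal 3 it was -0.72. Tns3 was at -0.29 and Bcas1, Itpr2 and Fyn were at -0.07, -0.07 and 0.03 for OTV:Malat1 against saline. Of the 20 cell cycle genes 5 were tested, Diaph3, Hells, Mcm6 and Top2a among them, and 0 passed. Their median was -0.04 for OTV:Malat1 (range -0.20 to 0.13), -0.35 for anti-TfR:Malat1 (range -1.18 to 0.23) and 0.01 for Malat1 ASO (range -1.25 to 0.33) against saline. Leaving out OTV:Malat1 animals 1, 2 and 3 in turn gave -0.12, -0.16 and 0.04 for the first.

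Mature myelin genes are given with the markers of other cell types, and whether their RNA here came from other cells was not tested. The 16 myelin genes summed to 679 CPM in these nuclei and 21015 in oligodendrocytes. The sums were 583, 783, 684 and 546 CPM in saline, 476 to 769 in anti-TfR:Malat1, and 636, 1325 and 638 in OTV:Malat1 animals 1, 2 and 3. OTV:Malat1 animal 2 thus stood apart. The median change of the 16 genes was 0.40 for OTV:Malat1 against saline and 0.45 against anti-TfR:Malat1, and without that animal it was -0.09 and -0.05. Without OTV:Malat1 animals 1 and 3 in turn the change against saline was 0.61 and 0.60. None of the 16 passed. The Malat1 change against saline without that animal was -0.35, and the relative spread of the other 2 still lay above every other animal. Neuron markers summed to 1802 to 1848 CPM in OTV:Malat1 and 1241 to 1863 in saline, with a median change of 0.34 over 10 tested genes, and none past the threshold. Without OTV:Malat1 animals 1, 2 and 3 in turn that median was 0.34, 0.31 and 0.47. At an unadjusted edgeR p under 0.05, 3 of the 10 were higher, beside 3.62% of all tested genes in either direction. The median against saline was 0.20 for anti-TfR:Malat1 and 0.06 for Malat1 ASO. The neuron markers of highest CPM, Meg3, Snap25, Syt1 and Nrgn, were at 0.11, 0.12, 0.30 and 0.67 for OTV:Malat1 against saline. Astrocyte markers summed to 887 to 940.2 CPM in OTV:Malat1 and 819 to 967 in saline, microglia markers to 70.7 to 109 and 67.1 to 77.3. Vascular and fibroblast markers summed to 10.9 to 19.3 CPM in OTV:Malat1 and 4.83 to 7.997 in saline, which do not overlap, and to 2.05 to 11.4 in Malat1 ASO and 1.05 to 12.85 in anti-TfR:Malat1, which overlap both. None of their 12 genes passed the filter. The part of these RNAs in the Malat1 values was not tested.

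Among receptors and channels by which precursors receive signals, 27 of 28 transmitter receptor and channel genes were tested and 0 passed. Kcnd2, a potassium channel, Grm5 and Gria4, glutamate receptors, and Grik2, a kainate receptor, were at -0.15, -0.03, -0.13 and -0.07 on the log2 scale for OTV:Malat1 against saline, and the list median was -0.06, or -0.06, 0.01 and -0.13 without OTV:Malat1 animals 1, 2 and 3 in turn. Of 28 growth factor and differentiation genes 23 were tested. Erbb4, Fgfr2 and Igf1r, receptors for neuregulins, fibroblast growth factors and insulin-like growth factor, gave -0.02, 0.07 and 0.12.

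Genes of iron uptake, endosomes and RNA decay bear on how a carried oligonucleotide reaches its target. The receptor transcript Tfrc was at 11.3, 14.2, 11.996 and 17.4 CPM in saline, 17.2, 21.9 and 10.2 in OTV:Malat1 and 7.71 to 16.9 in anti-TfR:Malat1. The groups overlapped (log2 0.22, SE 0.31, for OTV:Malat1 against saline). How the knock-in transcript is counted was not stated. The iron list had 13 of 16 genes tested and a median of 0.05, with the ferritin gene Fth1 at 0.47, Cp at -0.25, Pcbp2 at 0.17 and Fbxl5 at 0.03. The tested genes of this list summed to 1156 CPM in OTV:Malat1 animal 2, against 759 and 726 in the others of its group and 633 to 896 in saline, and the median without that animal was 0.03, and without animal 3 it was 0.12. All 18 genes of the endosome, lysosome and RNA decay list were tested, with a median of 0.03, or 0.06, -0.01 and 0.04 without OTV:Malat1 animals 1, 2 and 3 in turn. Lrp1, Xrn2, Ap2b1 and Lamp2 were at -0.09, -0.01, 0.10 and 0.03.

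Nuclear noncoding RNAs and speckle genes did not pass either. Neat1, the neighbouring paraspeckle RNA, was at 6.56 to 21.3 CPM in saline and 10.3 to 15.4 in OTV:Malat1 (log2 0.14, SE 0.38). The nuclear noncoding RNA list had 12 of 13 genes tested and a median of 0.07 for OTV:Malat1 against saline, with Xist at 0.06, Snhg11 at 0.11 and Kcnq1ot1 at -0.19. The median was 0.02 without OTV:Malat1 animal 1 and 0.13 without animal 2. Its genes summed to 3404 to 4067 CPM in saline, 3333 to 4112 in anti-TfR:Malat1, 3708 to 4109 in OTV:Malat1 and 2086 to 4081 in Malat1 ASO, where the lowest is animal 1, which had 1 Xist UMI. Tsix, which was no member of the list and was chosen after its values were seen, was at -0.74 for Malat1 ASO against saline (edgeR adjusted p = 0.0029) in the fit without the filter on low counts, with 0 UMIs in the same animal. All 18 speckle and splicing genes were tested, with a median of 0.00 and a range of -0.24 to 0.19, and the median was -0.06 without OTV:Malat1 animal 1 and -0.01 without animal 2. Srrm2, Rbm39, Son and Luc7l3 were at 0.11, -0.01, 0.00 and -0.05. The sets for interferon response (5 of 22 genes tested), p53 targets (6 of 15), cholesterol synthesis (14 of 16), immediate early genes (5 of 11) and glucocorticoid-induced genes (5 of 8) had medians of -0.04, -0.06, 0.16, 0.18 and -0.13 for OTV:Malat1 against saline. The 14 tested cholesterol genes summed to 467 CPM in OTV:Malat1 animal 2, against 321 and 330 in the others of its group and 289 to 359 in saline. The median of the cholesterol list without that animal was -0.09, and 0.28 and 0.27 without animals 1 and 3. With OTV:Malat1 animals 1, 2 and 3 left out in turn, the interferon median was -0.15, -0.11 and -0.04 and the p53 median -0.07, -0.12 and 0.10. The immediate early median was 0.13, 0.09 and 0.07, and the glucocorticoid median -0.31, -0.06 and -0.15. The genes of highest CPM in these lists, in turn Ifi27, Mdm2, Srebf2, Jun and Sgk1, were at 0.10, -0.10, 0.07, 0.25 and -0.13. None of the genes of these lists passed in any comparison.

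**Figure D5:**
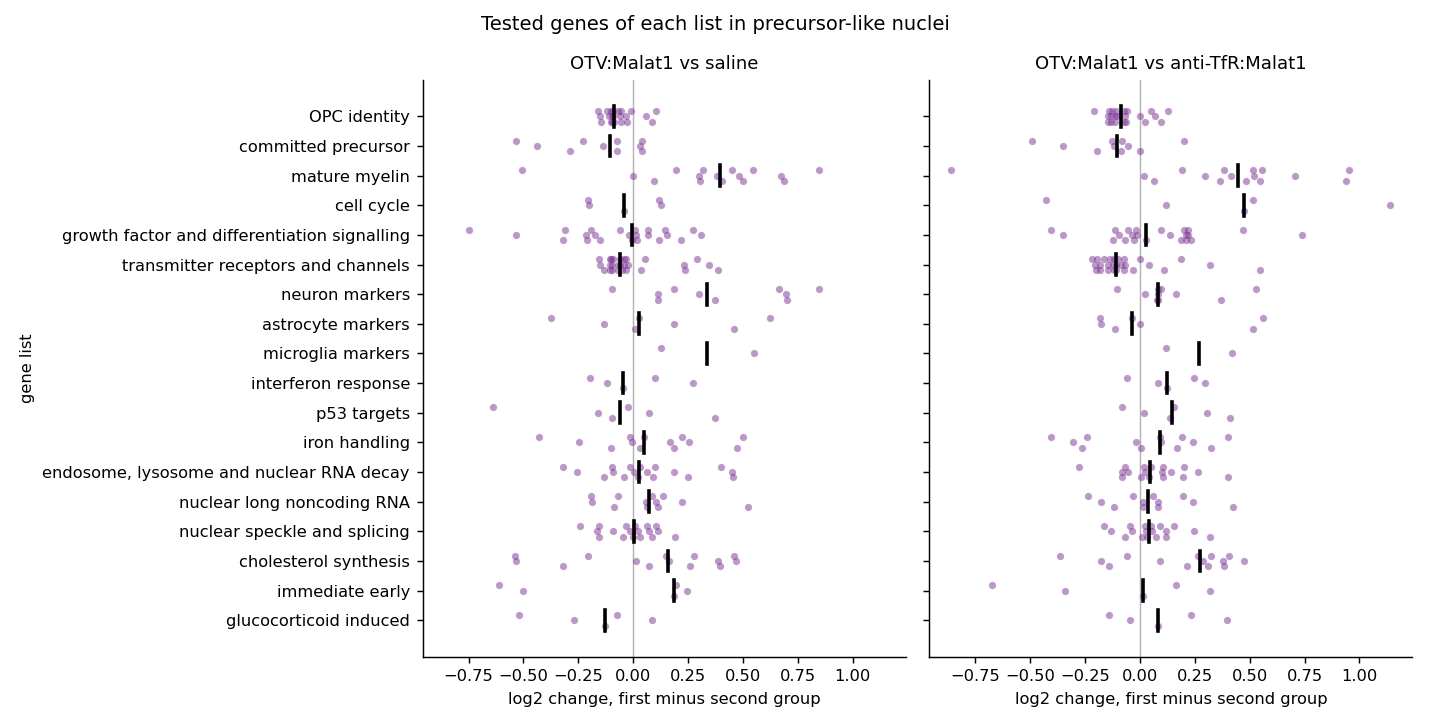
Log2 change of each tested gene (points) in 18 gene lists (rows) with the list median (black bar), for OTV:Malat1 against saline (left) and against anti-TfR:Malat1 (right). The mature myelin bars at 0.40 and 0.45 rest on 1 OTV:Malat1 animal, and the identity list is narrow around -0.09 in both panels.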

How the data were processed

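The authors deposited 1 matrix of UMI counts over 26131 genes and 284074 nuclei with metadata giving cluster, predicted cell type, a maximum prediction score (a fraction from 0 to 1), doublet call and batch. Per the submitters' processing notes, Cell Ranger 6.0.1, Seurat 4 and the mm10 build were used, and their settings are not given in the sources used here. Summed counts equalled the deposited totals in every nucleus, and each nucleus had at least 500 UMIs. The members and lists were chosen with earlier results of these data known.

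Counts were summed per animal over the precursor-like nuclei and tested in 1 fit of all 17 animals with edgeR 4.0.16 (filterByExpr, TMM, quasi-likelihood test, Benjamini-Hochberg, threshold 0.05), checked on simulated counts. Single values per animal were compared by exact two-sided permutation over animals, with the smaller tail doubled, on log2(CPM + 1) or percentages. Thinning drew 500 UMIs per nucleus without replacement. Alternatives were DESeq2 1.42.0, other scalings and filters, blocks for replicate number and batch, removal of doublets or shallow nuclei, both labels of the cluster, and leaving out each animal. Named genes are Malat1, Pdgfra, Vcan, Cspg4, Olig2, Gpr17, Neat1, Tfrc, up to 5 genes each way with the smallest p where fewer than 3 passed, up to 4 of highest CPM per list, and the 10 leading genes. Spread and low tail of Malat1, list medians without 1 animal, and the Xist and Y-linked check were added after the data were seen. The clustering used expression, and whether Malat1 shaped it was not tested. UMIs per animal in these nuclei ran from 738020 to 1242763. Depth bounds the counting error only, and the number of animals sets the rest of the precision.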

Additional observations from a re-analysis of the deposited data

Results flagged for a closer look

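Of 36 groups of 4 to 6 animals examined, 8 held an animal far from the others of its group. For a single group chance gives about 1 in 20. The groups share animals and several Malat1 measures overlap, so the count cannot show an excess over chance. In anti-TfR:Malat1 the highest share of precursor-like nuclei among all nuclei was 3.09% (animal 1). The share of nuclei under 14 Malat1 UMIs of 500 was highest at 27.5% in saline animal 4, 13.002% in Malat1 ASO animal 4 and 15.7% in anti-TfR:Malat1 animal 1. The first 2 are the batch 4 animals of their groups, and the third is the batch 1 animal. The Malat1 difference between precursor-like nuclei and oligodendrocytes was lowest in anti-TfR:Malat1 animal 1, at -0.70. Between precursor-like nuclei and neurons it was highest among saline animals in animal 1, at -0.11. The difference between committed and other precursor-like nuclei was lowest in Malat1 ASO animal 3, at -0.10. Xist was lowest among the Malat1 ASO animals in animal 1, at 1.27 CPM.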

How the results depend on the processing

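In each alternative run, the Malat1 change of OTV:Malat1 against saline and against anti-TfR:Malat1 kept its sign and did not pass. Of 111 alternative values over all 6 comparisons of the groups, 19 changed sign, none of them in a comparison with OTV:Malat1. Beside the values with 1 animal left out, anti-TfR:Malat1 against saline was 0.088 with the replicate block and 0.031 with the batch block, Malat1 ASO against saline -0.0020 when fitted on these groups alone, and anti-TfR:Malat1 against Malat1 ASO 0.079 and 0.024 with the same blocks. With the replicate block, OTV:Malat1 against saline was -0.38 (edgeR unadjusted p = 0.012, adjusted p = 0.999). Against anti-TfR:Malat1 it was -0.47 with the same block (edgeR unadjusted p = 0.0030), which did not pass after adjustment. Same-numbered animals correlated at -0.37 to 0.31 in their deviations, and the median was 0.19 within a batch and -0.06 between batches. Saline and Malat1 ASO animals 1 to 4 were in batches 1 to 4 in that order, and anti-TfR:Malat1 animals 1 to 3 in batches 1 to 3. Number and batch cannot be told apart there. OTV:Malat1 animals 1 to 3 were in batches 2 to 4. For OTV:Malat1 against saline, 3 of 6 animals correlated best with their own number. It was 4 of 8 for anti-TfR:Malat1 against saline, 6 of 8 for Malat1 ASO against saline and 2 of 6 between the carriers. Without the filter on low counts, 2, 4 and 2 genes passed for OTV:Malat1 against saline, for Malat1 ASO against saline and between the carriers, Gapdh and Gm47283 in the first. Against Malat1 ASO, 2 passed for OTV:Malat1 (Gapdh at 0.77, AC149090.1 at 0.69) and 1 for anti-TfR:Malat1 (AC149090.1 at 0.95).

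The values of this paragraph are differences between group means, in percentage points, or in log2 for Malat1 in committed minus other nuclei. For anti-TfR:Malat1 against saline, member share differed by 0.553 when taken over nuclei labelled other than Neurons plus the precursor-like nuclei. It differed by 0.0177 without doublets, 0.0164 from 1000 UMIs and 0.0546 within batches. Relative spread differed by 0.259 without doublets and 0.515 within batches. Committed nuclei were -3.61 at 1000 UMIs, -4.65 from 1 UMI and -0.0671 by Gpr17 for OTV:Malat1 against saline, -2.88, -3.64 and -0.242 against anti-TfR:Malat1, and 0.175 by Gpr17 for anti-TfR:Malat1 against saline. Cell cycle nuclei were 0.00896 at 1000 UMIs for anti-TfR:Malat1 against saline, and from 1 UMI -0.850 and -0.133 for OTV:Malat1 against saline and anti-TfR:Malat1. Malat1 in committed minus other nuclei was 0.022 and 0.041 from 1 UMI for anti-TfR:Malat1 and Malat1 ASO against saline, and by Gpr17, which had enough nuclei in only 2 of 4 Malat1 ASO and 4 of 6 anti-TfR:Malat1 animals, -0.033, 0.026, 0.016 and -0.059 for OTV:Malat1, anti-TfR:Malat1 and Malat1 ASO against saline and between the carriers. The cause was not tested for any of these.

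Leaving out each animal in turn gave these ranges. Anti-TfR:Malat1 against saline ran from -0.17 to 0.14 for the Malat1 change, -0.20 to 0.13 for its single value, -0.132 to 0.0919 for member share, -5.18 to 3.56 for low Malat1 share, -1.45 to 0.894 for committed nuclei, -0.021 to 0.012 for committed minus other, -0.841 to 0.543 for relative spread, and 0.47 to 0.60, 0.57 to 0.65 and 0.10 to 0.18 for the differences from oligodendrocytes, astrocytes and neurons. Malat1 ASO against saline ran from -0.15 to 0.16, -0.18 to 0.17, -0.0891 to 0.285, -6.81 to 2.39 and -0.034 to 0.0034 for Malat1 change, single value, member share, low share and committed minus other, and -0.574 to 0.122 for the low tail. Anti-TfR:Malat1 against Malat1 ASO ran from -0.14 to 0.082 and -0.17 to 0.070 for change and single value. Committed nuclei ran from -1.38 to 1.92 for OTV:Malat1 against saline and -1.03 to 2.27 against anti-TfR:Malat1, and cell cycle nuclei from -0.107 to 0.160 for OTV:Malat1 against saline.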
